A study of Mus musculus with 8 samples.

Results

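The chemokine system of perilesional forebrain was followed through 9 genes, 7 ligands (Cxcl10, Cxcl12, Cxcl14, Cxcl16, Cx3cl1, Ccl2 and Ccl27a) and 2 receptors (Cxcr4 and Ackr3). They were chosen by name as the chemokine genes of interest, and each symbol matched 1 of the 54232 genes in the count tables. Single-nucleus RNA sequencing, which counts RNA molecules in isolated nuclei, was done on a frozen 2 mm cube of brain tissue from male Swiss Webster mice of 10 weeks. The 8 libraries fall into 4 groups of 2 biological replicates by surgery: control, TBI (traumatic brain injury), BCAS, and BCAS and TBI together (BCAS+TBI). BCAS is given only as an abbreviation, which the study's title ties to cerebral hypoperfusion, and neither the control surgery, the time from surgery to collection nor the number of mice in a library is given. The design asks what each surgery does alone and whether hypoperfusion changes the outcome of injury.

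Chemokines are small secreted or membrane-tethered proteins that steer cells along gradients through G protein-coupled receptors. Some are made constitutively, such as Cxcl12, which holds stem cells, leukocytes and migrating neurons in place through Cxcr4, while Ackr3 binds the same ligand, signals mainly through arrestins and clears it from the tissue. Cx3cl1 (fractalkine) is tethered to neurons, is shed by Adam10 and Adam17, and is read by Cx3cr1 on microglia. Others are induced by inflammation: Ccl2 draws monocytes through Ccr2, and Cxcl10 is an interferon-induced ligand of Cxcr3.

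The 250 bases before RefSeq's start of 3 ligands are shown because these ligands were found in different nuclei: Cxcl10 was found in 34 nuclei, Cxcl12 was highest in endothelial-like nuclei and Cx3cl1 in neuron-like nuclei. The sequences are those of RefSeq on GRCm38.p6, written 5′ to 3′ on the strand of the gene, from chr5:92348890-92349139 (minus strand) for Cxcl10, chr6:117168285-117168534 (plus strand) for Cxcl12 and chr8:94771930-94772179 (plus strand) for Cx3cl1. GENCODE M21 starts Cx3cl1 farther upstream, so that 171 of the 250 bases lie inside the gene as placed there. Capitals mark matches, on either strand, to a form of the NF-kB site (GGG, any 3 bases, TTCC), a form of the interferon-stimulated response element (GAAA, any 2 bases, GAAA), ACGTG (the core bound by hypoxia-inducible factors) or TATAAA.
Cxcl10: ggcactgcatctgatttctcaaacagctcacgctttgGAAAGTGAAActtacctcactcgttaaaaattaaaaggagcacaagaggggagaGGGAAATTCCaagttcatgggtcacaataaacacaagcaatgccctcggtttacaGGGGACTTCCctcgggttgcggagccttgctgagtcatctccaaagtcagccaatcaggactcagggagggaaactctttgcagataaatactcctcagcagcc
Cxcl12: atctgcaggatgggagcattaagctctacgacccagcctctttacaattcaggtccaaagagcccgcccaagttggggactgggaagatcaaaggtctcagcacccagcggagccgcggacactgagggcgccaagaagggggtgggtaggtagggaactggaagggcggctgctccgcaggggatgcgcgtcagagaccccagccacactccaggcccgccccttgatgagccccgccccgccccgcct
Cx3cl1: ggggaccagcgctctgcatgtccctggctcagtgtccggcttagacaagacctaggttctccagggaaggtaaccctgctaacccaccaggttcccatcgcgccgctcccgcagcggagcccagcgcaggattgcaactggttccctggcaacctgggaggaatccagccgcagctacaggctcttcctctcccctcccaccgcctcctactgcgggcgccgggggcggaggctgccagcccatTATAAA
The Cxcl10 stretch held 2 matches to the NF-kB form, at bases -159 to -150 and -104 to -95 from the start, and 1 to the interferon form, at -213 to -204. RefSeq's promoters matched 7 of the 9 genes, and of these only Cxcl10 held the NF-kB form, which 4.648% of 32851 promoters of the same length hold. The interferon form, held by 2.977% of promoters, was also found upstream of Cxcl14, at -172 to -163. Cx3cl1, Ackr3 and Cxcr4 held TATAAA (12.368% of promoters), and ACGTG (16.572%) was in none of the 7. The TATAAA match lay at -6 to -1 in Cx3cl1 and at -8 to -3 in Ackr3. In Cxcr4 it lay at -30 to -25 and, on the other strand, at -32 to -27. No match to these letters was found upstream of Cxcl12. These are matches of letters and no measurement of binding.

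The libraries fell into 2 sets by total UMIs (unique molecular identifiers, counted RNA molecules), each with 1 library of every group. Set 1 (control 1, BCAS 1, TBI 1 and BCAS+TBI 2) held 28118725 to 33363564 UMIs with 1.204 to 2.77% mitochondrial UMIs, and set 2 held 42651388 to 56135192 UMIs with 0.511 to 1.04%. After filtering, 45697 nuclei of 53390 barcodes were kept, and 12 classes were named from marker genes ("-like" below), with 11583 nuclei (25.35%) in 7 clusters left unnamed. Any 2 libraries shared 5 to 20 barcodes. Levels are CPM, the UMIs of a gene per 1000000 UMIs of the nuclei summed in 1 library.

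The ligand-receptor axis with the clearest address was Cxcl12. In endothelial-like nuclei, named by Cldn5, Flt1 and other markers, Cxcl12 stood at 808 ± 158 CPM (mean and SD, n = 8 libraries) and was found in 33.5% of 1176 nuclei at a median depth of 1033 UMIs. By library it was 927 and 615 CPM in control 1 and 2, 1009 and 945 in BCAS, 909 and 763 in TBI, and 655 and 638 in BCAS+TBI. Both BCAS+TBI libraries were below both BCAS and both TBI libraries. Both BCAS libraries were above both control libraries, and control 2 was the lowest of the 8. Between BCAS+TBI and TBI, 24.1% of all gene and class pairs with at least 10 UMIs did not overlap, so such separation was common. The share was not counted for the other comparisons of 2 groups.

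Fibroblast-like nuclei came next at 84.1 ± 23.0 CPM and mural-like nuclei (pericytes and smooth muscle) at 56.3 ± 50.6 CPM, and endothelial-like nuclei were above them in 8 of 8 libraries. Fibroblast-like and mural-like levels overlapped, 45.3 to 113 against 16.5 to 168 CPM. The other 9 classes had mean levels of 2.28 (choroid plexus-like) to 10.1 CPM (ependymal-like), and neighbours among them did not separate beyond the spread between libraries. Cxcl12 was found in 2.40% of excitatory neuron-like nuclei (median 6372 UMIs) and in 0.860% of choroid plexus-like nuclei at 2883 UMIs, far below the share in the shallower endothelial-like nuclei.

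A large part of the Cxcl12 RNA lay in a cluster that was left unnamed because haemoglobin genes led it beside endothelial and mural markers. Its 371 nuclei held 45.3% of all 4717 Cxcl12 UMIs at 720 ± 168 CPM, close to the endothelial-like level. Cxcl12 over whole libraries ran from 8.81 CPM in BCAS+TBI 1 to 31.9 CPM in TBI 1. In TBI 1 the haemoglobin-led cluster made up 2.88% of the library's UMIs and gave 556 of 869 Cxcl12 UMIs. In the other 7 libraries it made up 0.454 to 1.54% of UMIs. The 7 endothelial markers summed to 380 CPM in TBI 1 and 137 to 257 CPM elsewhere, while Cxcl12 per endothelial-like nucleus in TBI 1 was within the range of the others. In sums over all nuclei, more vascular nuclei and more Cxcl12 per nucleus cannot be told apart.

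Within endothelial-like nuclei, 614 nuclei with none of the arterial (Bmx, Efnb2, Vegfc, Sema3g) or venous (Nr2f2, Vwf, Slc38a5) genes had Cxcl12 at 1108 ± 287 CPM and in 41.9% of nuclei (95% Wilson interval 38.0 to 45.8%). The 153 nuclei with arterial genes alone had 876 ± 444 CPM, and the 289 with venous genes alone had 609 ± 333 CPM and 23.9% of nuclei (19.3 to 29.1%). The median depth was 919, 1029 and 1224 UMIs in the order given, so the share did not follow depth, and the levels of the 3 gates overlapped between libraries. Intervals cover counting error only.

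Ackr3, the scavenging receptor for Cxcl12, was highest in vascular and precursor classes. It was lower in inhibitory, excitatory and striatal projection neuron-like nuclei, at 11.3, 5.37 and 4.22 CPM. Its mean was highest in mural-like nuclei at 107 ± 39.5 CPM, followed by endothelial-like nuclei at 82.0 ± 46.7 CPM and oligodendrocyte precursor-like nuclei at 57.6 ± 18.5 CPM. Mural-like nuclei had 121 and 138 CPM in control 1 and 2, 148 and 57.8 in BCAS, 147 and 94.5 in TBI, and 44.8 and 103 in BCAS+TBI. These values rest on 4 to 10 UMIs a library. Both BCAS+TBI libraries were below both control libraries, and the other groups overlapped. How many of all pairs separate between BCAS+TBI and control was not counted. Endothelial-like nuclei had 179 and 53.0 CPM in control, 126 and 70.9 in BCAS, 66.9 and 54.3 in TBI, and 60.5 and 44.8 in BCAS+TBI. The 3 highest libraries, control 1, BCAS 1 and BCAS 2, had no TBI surgery, and control 2 lay among the 4 libraries that had it.

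Oligodendrocyte precursor-like nuclei had 69.7 and 48.9 CPM of Ackr3 in control, 79.7 and 35.1 in BCAS, 38.1 and 72.7 in TBI, and 41.6 and 75.1 in BCAS+TBI, with no separation of the groups. Mural-like nuclei were above endothelial-like nuclei in 5 of 8 libraries, so the order of these 2 classes was not settled. Fibroblast-like (29.6 ± 24.0 CPM), choroid plexus-like (26.2 ± 16.5) and astrocyte-like nuclei (25.1 ± 4.96) followed, and microglia-like nuclei were lowest at 2.49 ± 2.97 CPM. Ackr3 was found in 12.2% of precursor-like nuclei at a median of 2281 UMIs against 0.360% of oligodendrocyte-like nuclei at 1339 UMIs.

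Among inhibitory neuron-like nuclei, those with Sst alone of 4 subtype genes (Lamp5, Sst, Pvalb, Vip) had Ackr3 at 21.6 ± 6.89 CPM and in 10.6% of 1135 nuclei (95% Wilson interval 8.91 to 12.5%). Nuclei with Pvalb alone had 2.48 ± 2.78 CPM and a share of 1.75% (0.806 to 3.77%) at a higher median depth. Of the 1176 endothelial-like nuclei, 394 had a UMI of Cxcl12, 102 had Ackr3 and 51 had both.

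Cxcr4, the signalling receptor for Cxcl12, was sparse, with 151 UMIs in 148 nuclei. Its level over all nuclei was 0.531 and 0.691 CPM in control, 0.795 and 0.478 in BCAS, 0.660 and 0.308 in TBI, and 0.422 and 0.599 in BCAS+TBI, and the groups overlapped. The highest class mean, 12.5 ± 11.5 CPM in ependymal-like nuclei, rests on 14 UMIs. In that class control had 23.3 and 29.6 CPM, BCAS 24.0 and 7.92, TBI 8.33 and 6.92, and BCAS+TBI 0 and 0, from at most 5 UMIs a library. Inhibitory neuron-like nuclei held more of its UMIs than any other named class, 40 of 151, and 34 of these were in the cluster led by Sst and Crhbp. Microglia-like nuclei had 4.93 ± 5.03 CPM. At a finer clustering, 5 of 68 border macrophage-like nuclei (7.35%) had a UMI of Cxcr4 against 3 of 720 microglia-like nuclei (0.417%), at medians of 1204.5 and 1205 UMIs.

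**Figure D1:**
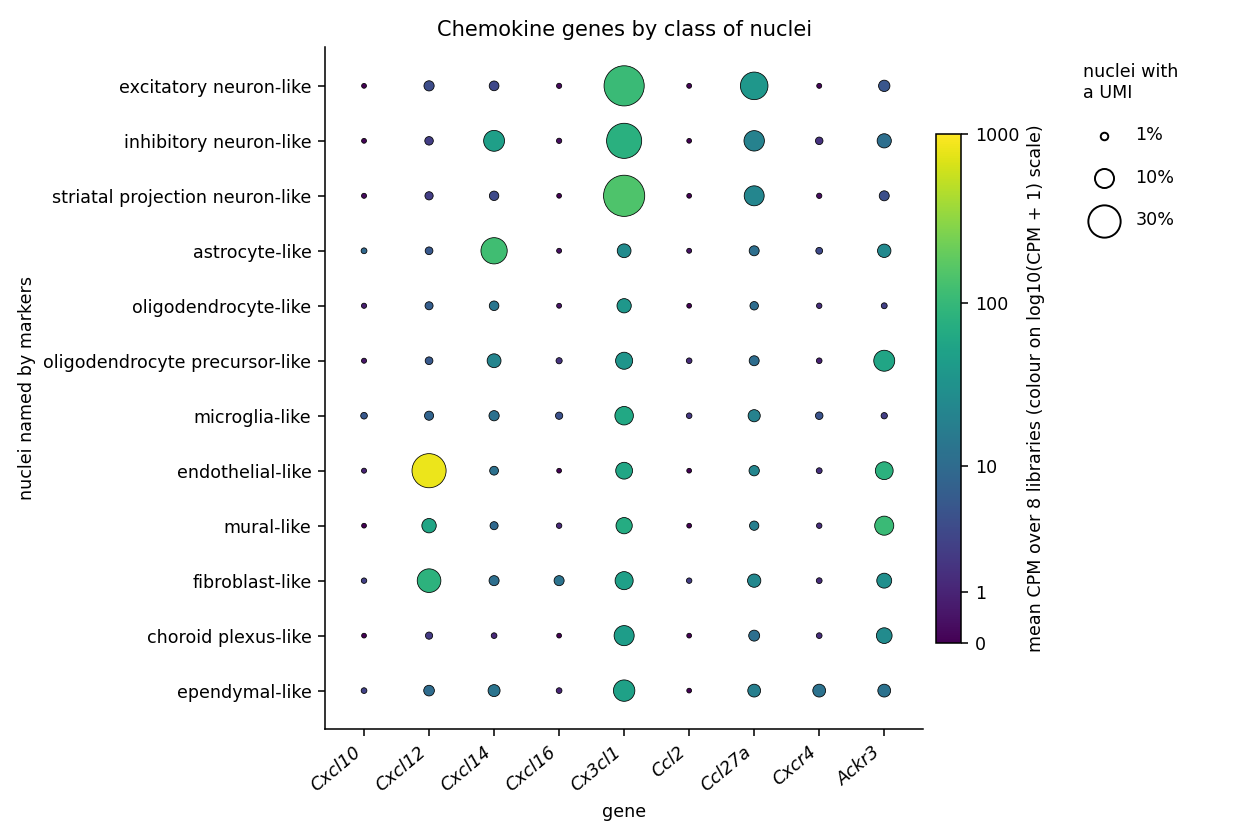
Mean level (colour, CPM on a log10(CPM + 1) scale) and share of nuclei with a UMI (dot area) of the 9 genes in the 12 classes, over 8 libraries. Cxcl12 peaks in endothelial-like nuclei at 808 CPM, Cxcl14 in astrocyte-like nuclei, Cx3cl1 in the 3 neuron-like classes and Ackr3 in vascular and precursor-like nuclei.

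Cxcl14, a ligand made at steady state in many epithelia and in the brain, was an astrocyte and interneuron gene here. Astrocyte-like nuclei had 121 ± 37.9 CPM, found in 19.6% of 3300 nuclei at a median of 1874.5 UMIs. By library the level was 137 and 106 CPM in control, 151 and 83.6 in BCAS, 140 and 77.8 in TBI, and 86.8 and 184 in BCAS+TBI. In every group the library of set 1 was the higher, and the groups overlapped. Inhibitory neuron-like nuclei followed at 47.1 ± 16.2 CPM and were below astrocyte-like nuclei in 8 of 8 libraries. Oligodendrocyte precursor-like nuclei had 22.2 ± 5.65 CPM, the other classes 1.22 to 14.2 CPM. Striatal projection neuron-like nuclei, with a median of 4761 UMIs, had it in 1.96% of nuclei.

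Within inhibitory neuron-like nuclei the level of Cxcl14 followed the subtype genes. The 552 nuclei with Vip alone had 186 ± 55.5 CPM (118 to 275 over 8 libraries) and a UMI in 35.3% of nuclei (95% Wilson interval 31.5 to 39.4%). Those with Lamp5 alone had 42.0 ± 36.3 CPM, with Sst alone 9.13 ± 6.26 CPM and with Pvalb alone 10.3 ± 20.6 CPM. The Vip range lay above the Sst range of 3.89 to 21.9 CPM in full, at a lower median depth of 4491 against 6121 UMIs. The cluster led by Vip and Adarb2 held 992 of all 3563 Cxcl14 UMIs. The astrocyte cluster led by Aqp4 and Apoe had 133 ± 38.5 CPM and the one led by Slc6a11 and Itih3 had 89.3 ± 40.2 CPM, ranges that overlapped.

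Cx3cl1 was a neuronal gene throughout. Striatal projection neuron-like nuclei had 146 ± 37.5 CPM, excitatory neuron-like nuclei 106 ± 18.9 CPM and inhibitory neuron-like nuclei 79.5 ± 11.5 CPM. Striatal nuclei were above excitatory nuclei, and excitatory above inhibitory, in 8 of 8 libraries. In striatal projection neuron-like nuclei the values were 155 and 129 CPM in control, 173 and 113 in BCAS, 178 and 96.0 in TBI, and 117 and 203 in BCAS+TBI. Excitatory neuron-like nuclei had 112 and 93.1 CPM in control, 129 and 82.8 in BCAS, 116 and 89.7 in TBI, and 92.4 and 132 in BCAS+TBI. Inhibitory neuron-like nuclei had 86.1 and 71.0, 88.3 and 63.3, 85.4 and 68.8, and 76.3 and 96.9 CPM in the same order. In all 3 classes the groups overlapped, and each group's library of set 1 was the higher.

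Nuclei of the other 9 classes had Cx3cl1 at 26.5 ± 10.0 (astrocyte-like) to 68.8 ± 31.6 CPM (mural-like). It was found in 46.7% of excitatory neuron-like nuclei (median 6372 UMIs) and in 4.91% of astrocyte-like nuclei at 1874.5 UMIs. How much of the level outside neurons is free neuronal RNA was not tested. The mural-like range of 34.5 to 126 CPM overlapped the inhibitory neuron-like range of 63.3 to 96.9 CPM, so this part of the order is not resolved. The share of excitatory neuron-like nuclei with a UMI ran from 39.8 to 47.3% in set 1 and 46.7 to 53.9% in set 2, the opposite order to the CPM, and the nuclei of set 2 were the deeper ones.

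Ccl27a, the ligand of Ccr10, was highest in excitatory neuron-like nuclei at 37.3 ± 4.96 CPM. Their libraries had 33.6 and 36.1 CPM in control, 42.5 and 34.5 in BCAS, 43.3 and 30.4 in TBI, and 35.0 and 43.1 in BCAS+TBI, and the groups overlapped. Fibroblast-like (24.4 ± 17.7), endothelial-like (23.0 ± 12.7), striatal projection neuron-like (22.7 ± 4.11), microglia-like (20.5 ± 9.18) and inhibitory neuron-like nuclei (20.01 ± 2.04 CPM) followed in an order that the spread does not resolve, and the other classes had 10.5 to 18.2 CPM. Among excitatory clusters, the one led by Hs3st4 and Rai14 had 78.4 ± 15.7 CPM (62.1 to 104) and the next, led by Kcnh5 and Rorb, 55.8 ± 8.69 CPM. The values of Ccl27a are uncertain in 2 ways: the mouse has near-identical copies of this gene, of which Ccl27b is listed with 172 UMIs against 8031 for Ccl27a, and its end overlaps an exon of Il11ra1 on the other strand. The strand setting of the counting is not given in the sources used here.

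Cxcl16, a membrane-bound ligand of Cxcr6, had 122 UMIs in all. Fibroblast-like nuclei led at 13.03 ± 7.87 CPM from 24 UMIs, with 14.7 and 5.81 CPM in control, 10.2 and 3.02 in BCAS, 16.1 and 8.23 in TBI, and 27.3 and 18.8 in BCAS+TBI. Both BCAS+TBI libraries were above the other 6, on 5 and 4 UMIs against 1 to 3. Against TBI alone, 24.1% of all pairs with at least 10 UMIs did not overlap, and the share for the other groups was not counted. Microglia-like nuclei had 4.53 ± 6.21 CPM from 8 UMIs. An exon of Zmynd15 overlaps Cxcl16 on the other strand.

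The inflammatory ligands Cxcl10 and Ccl2 were rare and came mainly from single libraries. TBI 1 had 75 UMIs of Cxcl10 and BCAS+TBI 2 had 25. Control 1 had 6, BCAS 1 had 1, BCAS 2 had 3, and control 2, TBI 2 and BCAS+TBI 1 had 0. Over all nuclei that is 2.75 CPM in TBI 1, 0.998 in BCAS+TBI 2 and 0.245 or less elsewhere; a count of 0 allows up to 3 UMIs, 0.0661 CPM in TBI 2 and 0.0792 CPM in BCAS+TBI 1. The other library of each TBI group had none, so the groups overlapped.

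Most Cxcl10 UMIs came from few nuclei. Astrocyte-like nuclei held 70 of the 110 UMIs, in 11 nuclei, all in the cluster led by Aqp4 and Apoe. In TBI 1, 44 of 48 astrocyte-like UMIs were in 1 nucleus, and in BCAS+TBI 2, 14 of 18 were in 1 nucleus. The cluster with haemoglobin and vascular markers gave 12 UMIs in 3 nuclei of TBI 1, and microglia-like nuclei gave 6 UMIs in 4 nuclei of TBI 1 and 5 UMIs in 1 nucleus of control 1. At the finer clustering, 3 of 68 border macrophage-like nuclei held 5 UMIs of Cxcl10, and 2 of 720 microglia-like nuclei held 6. Cxcl10 lies within Art3, a gene on the other strand whose exons overlap it.

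Ccl2 had 33 UMIs in 21 nuclei: 19 in TBI 1, 6 in BCAS+TBI 2 and 0 to 2 in each of the other 6 libraries. Over all nuclei this was 0.697 CPM in TBI 1, 0.239 in BCAS+TBI 2 and 0 to 0.0817 elsewhere, and the other TBI library had 0.0440 CPM. Of the 33 UMIs 10 were in 2 nuclei of the haemoglobin-led cluster, 8 of them in 1 nucleus, and fibroblast-like and microglia-like nuclei held 4 each. At the finer clustering, border macrophage-like and microglia-like nuclei held 2 UMIs of Ccl2 each. The highest class mean was 2.39 ± 5.65 CPM, in fibroblast-like nuclei, where 2 libraries had a UMI. One fibroblast-like and 1 microglia-like nucleus held both Cxcl10 and Ccl2.

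TBI 1 and BCAS+TBI 2 were also the libraries with the highest mitochondrial shares, and both are in set 1, the set with more ribosomal RNA (0.53 to 0.88% of UMIs against 0.25 to 0.30%). The part of these properties in the Cxcl10 and Ccl2 counts was not tested. Blood leukocyte markers (6 genes, none at 0) summed to 21.6 CPM in TBI 1 and 22.8 CPM in BCAS+TBI 2, inside the 19.2 to 37.2 CPM of the other 6 libraries. Border macrophage markers (6 genes, none at 0) summed to 14.8 and 16.5 CPM in these 2 libraries and 5.92 to 16.95 CPM in the others.

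**Figure D2:**
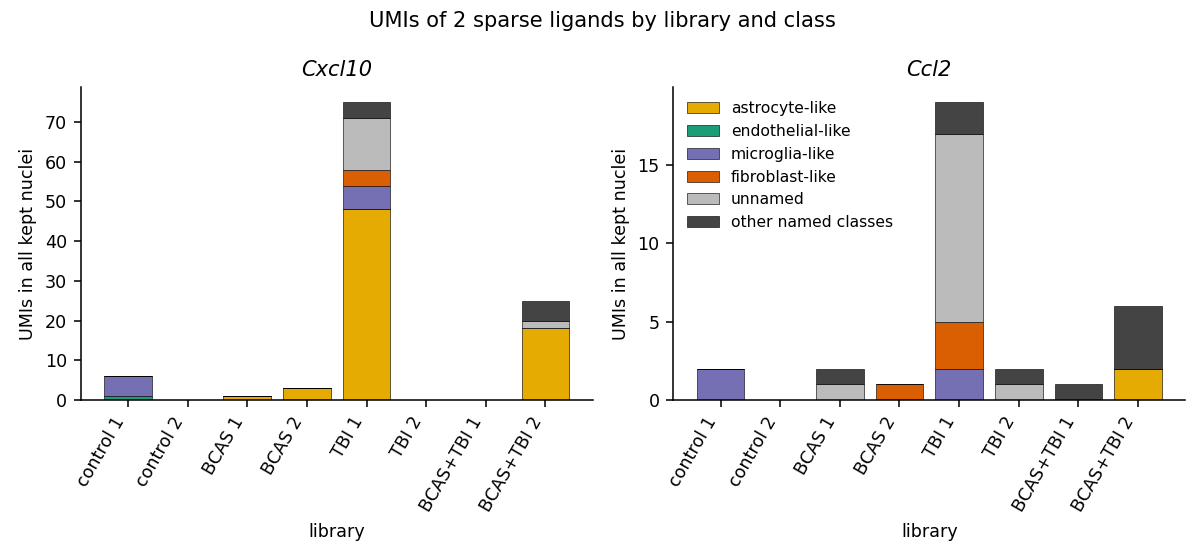
UMIs of Cxcl10 (left) and Ccl2 (right) in all kept nuclei of each library, stacked by class; counts are not scaled to depth. TBI 1 holds 75 of 110 Cxcl10 UMIs and 19 of 33 Ccl2 UMIs, and TBI 2 holds 0 and 2.

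Over all nuclei, no gene set the 4 surgery groups apart. Cx3cl1 had 87.3 and 75.2 CPM in control, 99.8 and 67.2 in BCAS, 96.1 and 79.6 in TBI, and 77.1 and 104 in BCAS+TBI. Cxcl14 had 16.1 and 10.7, 16.7 and 10.5, 16.6 and 7.95, and 10.4 and 21.3 CPM in the same order. Ackr3 had 11.3 and 7.83, 10.3 and 6.83, 11.4 and 6.94, and 6.62 and 11.65 CPM. In these 3 genes and Cxcl12 the libraries of set 1 were all above those of set 2. That is 4 of the 8 members with at least 80 UMIs, beside 40.6% of all 22667 such genes, so the members were near the background.

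Ccl27a over all nuclei had 26.0 and 27.9 CPM in control, 32.4 and 26.5 in BCAS, 33.8 and 26.1 in TBI, and 27.7 and 33.5 in BCAS+TBI. Cxcl12 had 17.7 and 16.3, 17.3 and 16.2, 31.9 and 12.1, and 8.81 and 21.9 CPM in the same order. Cxcl16 had 0.531 and 0.460, 0.454 and 0.159, 0.697 and 0.176, and 0.396 and 1.08 CPM. For Cxcl12 and Cxcl16 the 2 libraries of TBI and of BCAS+TBI lay farther apart than the 2 control libraries did.

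**Figure D3:**
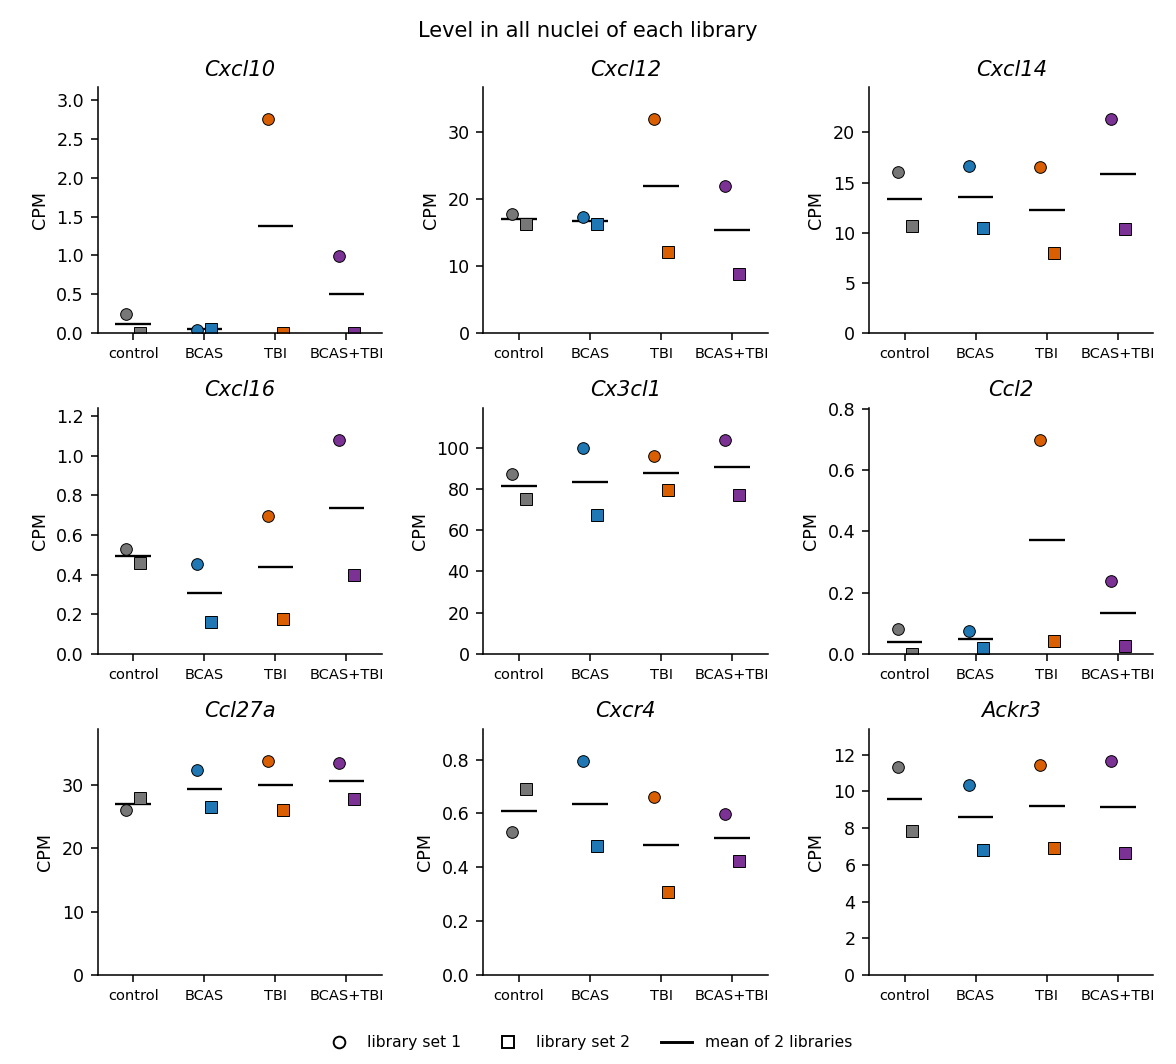
Level of each gene (CPM) in all nuclei of the 8 libraries by surgery group; circles are library set 1, squares set 2 and bars the mean of 2 libraries. For Cxcl12, Cxcl14, Cx3cl1 and Ackr3 every circle lies above every square, and the 4 groups overlap.

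The surgeries were compared with edgeR's quasi-likelihood test on counts summed per class and library. This main fit had no block, and each group held 1 library of each set. The difference between sets therefore enters its SEs and p-values as spread between replicates. Over all nuclei, set 1 was above set 2 without overlap in 40.6% of genes with at least 80 UMIs, and set 2 above set 1 in 16.4%. Cxcl10, Cxcl12, Cxcl14, Cx3cl1, Ccl27a and Ackr3 had enough counts in at least 1 class, giving 28 gene and class pairs, and Cxcl16, Ccl2 and Cxcr4 had too few in every class. None of the 28 pairs passed an adjusted p of 0.05 in any of 7 contrasts, beside 0% of all 96027 pairs in each of them (edgeR, Benjamini-Hochberg over all pairs). At an unadjusted p under 0.05, beside the share of all pairs at the same p, 2 of 28 passed when TBI was set against control (0.949% of all), 1 when BCAS was (1.3%) and 0 when BCAS+TBI was (1.13%). In BCAS+TBI set against TBI 1 passed (0.938%) and in the interaction 0 (1.1%). For TBI surgery averaged over BCAS 1 passed (1.26%), as for BCAS surgery averaged over TBI (1.12%). One of the 2 for TBI against control, and the one for TBI averaged, was Cxcl10 in astrocyte-like nuclei. That pair passed the filter on low counts through its high libraries and is no test, so these 2 counts are not set against the background as a result. DESeq2 called 0 of the 28 in every contrast, beside 0.00729% of all pairs when BCAS+TBI was set against control, 0.00104% for BCAS surgery averaged over TBI and 0% in the other 5.

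With TBI surgery, averaged over BCAS, 22 of the 28 pairs were higher and the median log2 fold change was 0.07, beside 0.00 over all pairs tested. The pairs share genes and libraries, so the count of higher pairs is a description and no test. Cxcl10 in astrocyte-like nuclei was fitted highest, with 0 and 0 UMIs in control, 1 and 3 in BCAS, 48 and 0 in TBI, and 0 and 18 in BCAS+TBI. This pair passed the filter on low counts through the 2 libraries that are high, and 1 nucleus in each holds most of their UMIs, so its fitted log2 fold change of 4.95 (SE 1.78) is given as a description with no test. Pooled over the 2 libraries of a group, the level was at least 15.4-fold in TBI and 6.66-fold in BCAS+TBI over control. The floor for control, whose libraries were at 0, was 3 UMIs over the group. TBI 2 and BCAS+TBI 1 were at 0 as well, so these folds rest on TBI 1 and BCAS+TBI 2 and hold for neither group as a whole. With no filter on low counts, Cxcl10 in astrocyte-like nuclei passed in 3 contrasts and was the one member pair of 96 to do so, mostly on those same 2 nuclei, which is no test of a surgery: TBI against control (beside 0.00525% of pairs), BCAS+TBI against control (0.0277%) and TBI averaged over BCAS (0.0158%). In BCAS against control (0.0154%), BCAS+TBI against TBI (0.0112%), the interaction (0.00595%) and BCAS averaged over TBI (0.0329%) 0 of 96 passed. Without TBI 1 the fitted log2 fold change of TBI against control was 0.00, and without BCAS+TBI 2 that of BCAS+TBI against control was 0.00.

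The next smallest p-values for TBI surgery averaged over BCAS were those of Ackr3 in endothelial-like nuclei at -0.75 (SE 0.41, unadjusted p = 0.0847) and Cxcl12 in fibroblast-like nuclei at 0.50 (SE 0.26, unadjusted p = 0.0863), with edgeR adjusted p = 1 for both. Cxcl12 in fibroblast-like nuclei had 93.4 and 77.5 CPM in control, 66.3 and 45.3 in BCAS, 108 and 71.3 in TBI, and 98.4 and 113 in BCAS+TBI. The arms overlapped in both. TBI against control also had Cx3cl1 in endothelial-like nuclei at 1.16 (SE 0.53, unadjusted p = 0.0446) and in fibroblast-like nuclei at 0.70 (SE 0.40, unadjusted p = 0.113), with edgeR adjusted p = 1 for both. In endothelial-like nuclei Cx3cl1 rested on 3 and 16 UMIs in control and 11 and 27 in TBI.

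With BCAS surgery, averaged over TBI, 18 of 28 pairs were higher with a median of 0.06, beside 0.00 over all pairs, again a description. Ccl27a in astrocyte-like nuclei had the smallest p-value, 0.99 (SE 0.42, unadjusted p = 0.0417, edgeR adjusted p = 1). Its libraries had 4.68 and 8.15 CPM in control, 13.8 and 13.7 in BCAS, 10.3 and 5.70 in TBI, and 12.2 and 21.8 in BCAS+TBI. All 4 libraries with BCAS surgery were above all 4 without it, on 3 to 16 UMIs a library. Of the 63 member pairs with at least 10 UMIs, 2 (3.17%) had arms that did not overlap for BCAS surgery, beside 1.76% of all 177060 such pairs. The other was Cxcl14 in endothelial-like nuclei, at 0 to 5.04 CPM with BCAS surgery and 11.8 to 29.9 CPM without it, from 20 UMIs. For TBI surgery it was 1 of 63 (1.59%), beside 1.85% of all pairs: Ackr3 in striatal projection neuron-like nuclei, at 6.31 to 7.75 CPM with TBI surgery and 0 to 2.70 CPM without it, from 31 UMIs. Cxcl12 in inhibitory neuron-like nuclei (-1.04, SE 0.64, unadjusted p = 0.143) and Cx3cl1 in oligodendrocyte-like nuclei (-0.38, SE 0.28, unadjusted p = 0.212) followed, with edgeR adjusted p = 1 for both. The first rested on 11, 6, 3 and 24 UMIs without BCAS surgery and 3, 4, 7 and 4 with it.

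In BCAS against control the smallest p-values were those of Cx3cl1 in fibroblast-like nuclei (0.96, SE 0.39, unadjusted p = 0.0352), Ccl27a in astrocyte-like nuclei (1.02, SE 0.60, unadjusted p = 0.125) and Cxcl12 in fibroblast-like nuclei (-0.59, SE 0.38, unadjusted p = 0.150), each with edgeR adjusted p = 1. For BCAS+TBI against control they were Ccl27a in astrocyte-like nuclei (1.32, SE 0.61, unadjusted p = 0.0569), Cxcl10 in astrocyte-like nuclei (6.50, SE 3.19, a description as above) and Ackr3 in endothelial-like nuclei (-0.88, SE 0.59, unadjusted p = 0.159), each with edgeR adjusted p = 1. The 3 comparisons with control share their control libraries.

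Whether hypoperfusion changed the response to injury is the comparison of BCAS+TBI with TBI and the interaction. Cx3cl1 in oligodendrocyte-like nuclei was at 45.1 and 53.6 CPM in TBI and 26.5 and 23.7 CPM in BCAS+TBI, without overlap, a log2 fold change of -0.93 (SE 0.41, unadjusted p = 0.0473, edgeR adjusted p = 1). Control had 31.0 and 37.9 CPM and BCAS 51.1 and 30.9 CPM. Between these 2 groups 18 of the 63 member pairs (28.6%) did not overlap, 7 of them higher with both surgeries, beside 24.1% of all pairs, so the members were near the background. Ccl27a in astrocyte-like nuclei (0.97, SE 0.58, unadjusted p = 0.131) and Cxcl14 in inhibitory neuron-like nuclei (0.61, SE 0.37, unadjusted p = 0.139) came next, with edgeR adjusted p = 1 for both. Cxcl14 there was 53.5 and 28.0 CPM in TBI and 41.0 and 81.9 CPM in BCAS+TBI, higher with both surgeries within each library set. The interaction was led by Cx3cl1 in fibroblast-like (-1.24, SE 0.57, unadjusted p = 0.0559), oligodendrocyte-like (-1.11, SE 0.57, unadjusted p = 0.0815) and astrocyte-like nuclei (-1.26, SE 0.67, unadjusted p = 0.0919), each with edgeR adjusted p = 1.

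**Figure D4:**
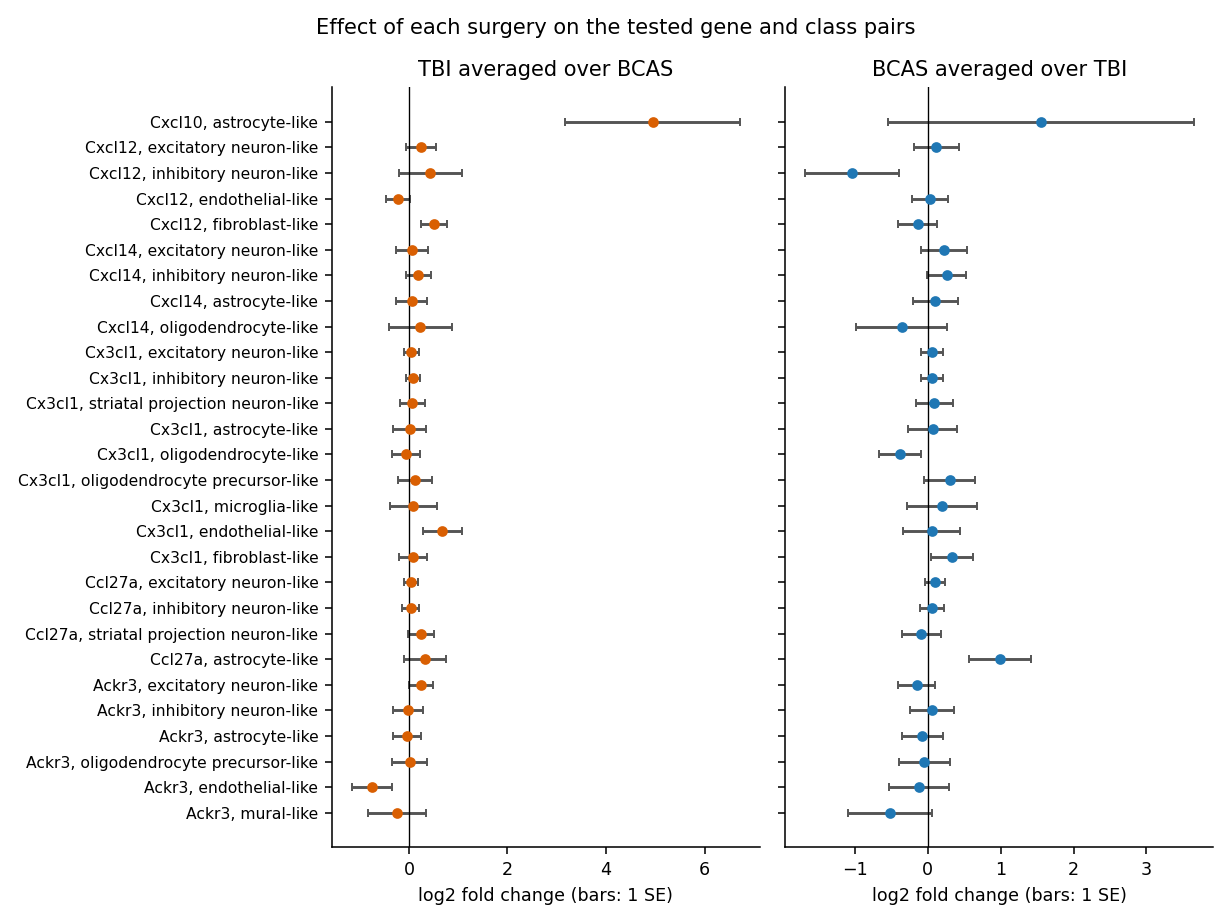
Log2 fold change (bars, 1 SE) of the 28 tested gene and class pairs for TBI surgery averaged over BCAS (left) and BCAS surgery averaged over TBI (right), from edgeR on 8 libraries. Most values lie near 0; Cxcl10 in astrocyte-like nuclei, at 4.95, has the widest error, and none passed an adjusted p of 0.05.

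With the library set as a block in the same test, none of the 28 pairs passed in any contrast, beside 0.00104% of all pairs for TBI, 0.0437% for BCAS and 0.076% for BCAS+TBI, each against control, 0.0354% where BCAS+TBI was set against TBI, 0.00208% for the interaction, and 0.00729% and 0.0833% for TBI and BCAS surgery averaged. In sums over all nuclei, 8 of the 9 genes were tested, all but Ccl2, and 0 passed in any contrast, beside 0% of 23921 genes (edgeR). At an unadjusted p under 0.05 there were 0 of 8 in each contrast, beside 0.242% of genes when TBI or BCAS was set against control, 0.272% when BCAS+TBI was, 0.234% for BCAS+TBI set against TBI, 0.222% for the interaction, and 0.263% and 0.309% for TBI and BCAS surgery averaged. DESeq2 called 0 of 8, beside 0.00836% of genes for BCAS surgery averaged over TBI and 0% in the other 6. Few of all genes reached that unadjusted p, so 0 of 8 does not show that the members were unchanged. With the library-set block 0 members passed, beside 0.00418% of genes for BCAS against control and 0% in the others. In that fit Cxcl14 for BCAS+TBI against TBI was at 0.38 (SE 0.15, edgeR unadjusted p = 0.0333). The main fit gave 0.39 (SE 0.40, edgeR unadjusted p = 0.364) for the same comparison. With the block, Cxcl10 for TBI against control was at 3.27 (SE 1.18), a description as above. In the main fit, for TBI surgery averaged over BCAS, Cxcl10 had 3.31 (SE 1.78), Cxcr4 -0.36 (SE 0.36) and Cxcl16 0.51 (SE 0.55) as log2 fold changes over all nuclei. For BCAS surgery Cxcl12 had -0.25 (SE 0.33), Cxcl14 0.21 (SE 0.28) and Ccl27a 0.08 (SE 0.12).

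**Figure D5:**
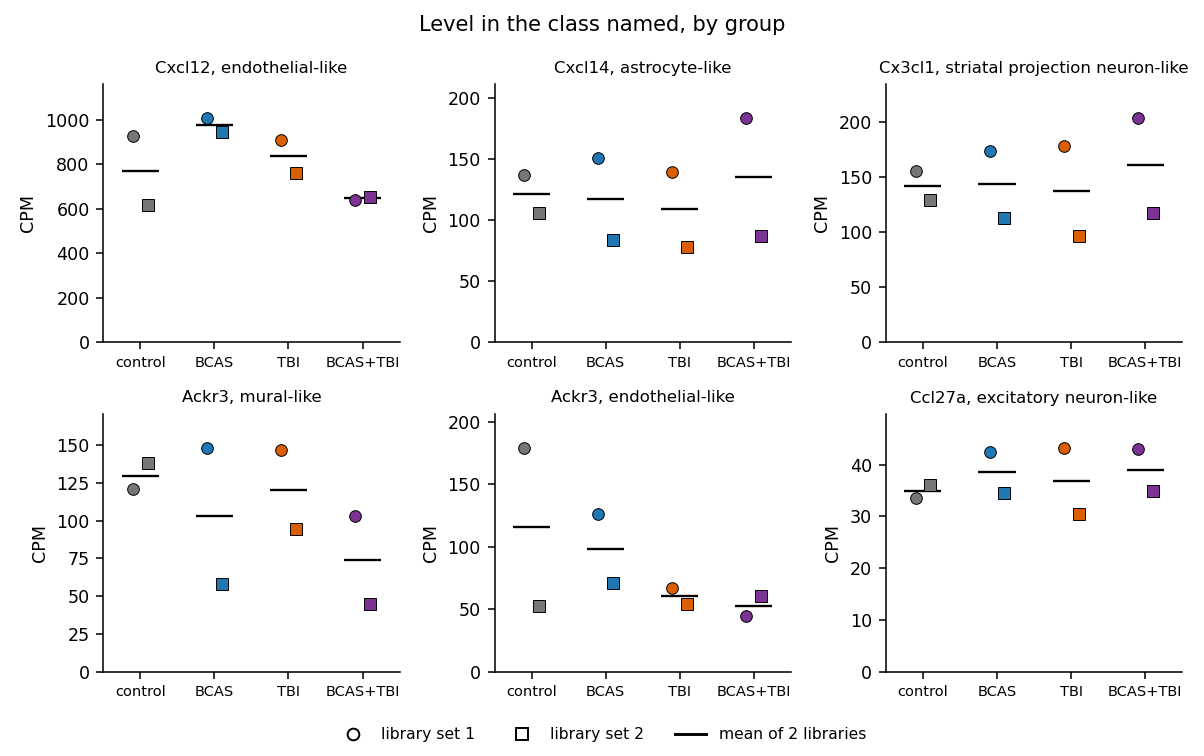
Level (CPM) by group in the classes where Cxcl12, Cxcl14, Cx3cl1, Ackr3 and Ccl27a are high; circles are library set 1, squares set 2 and bars the mean of 2 libraries. For Cxcl14 in astrocyte-like nuclei and Cx3cl1 in striatal projection neuron-like nuclei every circle lies above every square. For Cxcl12 both BCAS+TBI libraries, at 655 and 638 CPM, lie below both BCAS and both TBI libraries. Between BCAS+TBI and TBI, 24.1% of all pairs with at least 10 UMIs do not overlap.

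The share of nuclei with a UMI was compared after thinning each nucleus to 1000 UMIs, in 47 gene and class pairs for each surgery. Of the 94 exact permutation tests 1 reached the smallest p that 4 against 4 libraries allow, 0.0286, and its adjusted p was 0.855. It was Cxcl14 in fibroblast-like nuclei, found in 2.48% ± 1.00 with BCAS surgery and 0.877% ± 0.601 without (SD, n = 4, two-sided exact permutation). By library the share was 1.02 and 1.14% in control, 1.49 and 2.50% in BCAS, 0 and 1.35% in TBI, and 3.85 and 2.06% in BCAS+TBI. The arms did not overlap at this depth, which 822 of 952 nuclei reached. Without thinning the shares were 3.27% ± 1.09 and 1.80% ± 1.05 (exact permutation p = 0.0571), and thinned to 500 UMIs 0.793% and 0.542% (exact permutation p = 0.714).

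The genes whose levels over the 12 classes were most like a member's are given as a description, by Pearson's r of log2(mean CPM + 10) among 13185 genes. Abcb1a (0.98), the efflux pump of the blood-brain barrier, Flt1 (0.98) and Adgrf5 (0.98) were most like Cxcl12. Hapln1 (0.96), Pcdhgc4 (0.89) and Scg3 (0.88) were most like Cxcl14, and Ccsap, Actl6b and Kcng3 (0.96 each) most like Cx3cl1. Ankrd33b (0.94), Syt7 (0.93) and Gng13 (0.91) came nearest to Ccl27a, and Rhbdf1 (0.94), Vsig10 (0.93) and Il17rd (0.92) to Ackr3. For the sparse genes these were Col6a3, Themis and Ahnak2 (0.98, 0.97 and 0.96) for Cxcl16, Lgals3, C3 and Ptpn20 (0.95, 0.95 and 0.93) for Cxcr4, and Arhgap5, Sardhos and Pnpla7 (0.91, 0.91 and 0.90) for Cxcl10, which rest on 110 to 151 UMIs. The classes share libraries, and Flt1 was also used to name endothelial-like nuclei.

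The rest of the chemokine system was read from 3 further lists: 32 other ligands, 21 other receptors, and 24 signalling and shedding genes. Of these 6, 10 and 23 genes were tested in at least 1 class, and none passed in any contrast (edgeR; 0 with DESeq2). For TBI surgery averaged over BCAS, 3 of 17 ligand pairs, 14 of 26 receptor pairs and 77 of 175 signalling pairs were higher, with medians of -0.12, 0.02 and -0.02. For BCAS surgery averaged over TBI the numbers were 11, 7 and 91, with medians of 0.17, -0.06 and 0.00. The median over all pairs was 0.00 for either surgery. Pairs of a list share genes and libraries, so these counts are no test. At an unadjusted p under 0.05 there were 0, 0 and 2 pairs for TBI surgery and 1, 2 and 0 for BCAS surgery, of 17, 26 and 175 tested, beside 1.26% and 1.12% of all pairs. The 2 receptor pairs were Ccr6 and Ccr2 in microglia-like nuclei, which are described under other observations and are no test of BCAS surgery.

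Partners of the members were read in the same way. Cx3cr1, the receptor of Cx3cl1, stood at 872 ± 202 CPM in microglia-like nuclei and was found in 74.7% of them. Choroid plexus-like nuclei had 237 ± 132 CPM, with a UMI in 47.0%, and ependymal-like nuclei 111 ± 45.5 CPM, with a UMI in 22.0%. The other 9 classes had 10.5 to 27.5 CPM. In GENCODE M21 Cx3cr1 spans 168264 bases and overlaps other genes, among them Gorasp1, Csrnp1 and Xirp1 on the same strand, without overlap of exons. Whether RNA of such genes was counted as Cx3cr1, in any class, was not tested. Cxcr3, the receptor of Cxcl10, had 2 UMIs in all nuclei. Ccr2, the receptor of Ccl2, had 125 UMIs and was highest in microglia-like nuclei. Cxcl9, also an interferon-induced Cxcr3 ligand, had 18 of its 20 UMIs in TBI 1, and Ccl12, a further ligand of Ccr2, had 33 of 66 there. In TBI 2 they had 0 and 2 UMIs.

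By position (GRCm38, GENCODE M21), the members lie at chr5:92346638-92348889 (Cxcl10), chr6:117168535-117181367 (Cxcl12), chr13:56288643-56296551 (Cxcl14), chr11:70453983-70459984 (Cxcl16), chr8:94772009-94782427 (Cx3cl1), chr11:82035571-82037453 (Ccl2), chr4:41769467-41774247 (Ccl27a), chr1:128588199-128592293 (Cxcr4) and chr1:90203980-90216751 (Ackr3). All are protein-coding. Cxcl10, Cxcl14, Cxcl16, Ccl27a and Cxcr4 are on the minus strand and the other 4 on the plus strand. Ccl2 lies within Gm17268 on the other strand without overlap of exons.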

How the data were processed

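Nuclei were profiled with the 10x Genomics 3′ kit, per the labels' protocols, which state a target of about 3000 captured droplets per sample. The deposited values are raw UMI counts, with a matrix of genes and barcodes for each library; per the file headers, Cell Ranger 7.0.0 was the authors' counting tool. GRCm38 (mm10) and Seurat are named in the submitters' processing notes, and of the gene IDs 99.876% were in GENCODE M21. Libraries held 6191 to 7882 barcodes.

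A barcode needed 500 UMIs or more, 300 genes or more and no more than 5% mitochondrial UMIs, which 4922 failed. Scrublet in scanpy 1.11.5 scored doublets at an expected rate of 0.06, and the top-scoring 6% of each library (2771 nuclei) was left out. Clusters came from 2975 of 3000 variable genes, the members and other chemokine genes left out, by the Leiden method (igraph 0.11.9, resolution 1) on a graph of 15 neighbours over 30 principal components, without batch integration. They were named from marker lists; a lead of 1.0 on the log2 scale where markers of 2 classes were present was chosen after seeing the clusters. Free RNA was not removed. Since clusters come from the same nuclei, levels between classes have no test.

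Counts were summed per class and library. edgeR 4.0.16 (R 4.3.3; two-sided quasi-likelihood test, TMM scaling, filterByExpr at 10 counts) fitted the 4 groups over 8 libraries, with p-values adjusted by Benjamini and Hochberg over all pairs of a contrast. It was tested on counts simulated from the astrocyte-like sums, with 1 spread for all genes. No difference between library sets was simulated, so its effect on the fit was not tested there. Shares were compared by exact two-sided permutation over 70 assignments. Alternatives were RLE, DESeq2 1.42.0, other count filters, other nuclei or clusterings, 2 blocks and leaving out each library. The members and lists were chosen with earlier results of these data known. All 9 members are named, with the 3 smallest p-values of each contrast and, per member, the 3 genes most like it. The labels call the 2 libraries of a group biological replicates.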

Additional observations from a re-analysis of the deposited data

How the results depend on the processing

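The number of member pairs past the threshold was 0 in all 7 contrasts and stayed 0 in every alternative run but 1, leaving out each library in turn included (0 to 0). With no filter on low counts it was 1 in TBI against control, 1 in BCAS+TBI against control and 1 in TBI averaged over BCAS. Each time this was Cxcl10 in astrocyte-like nuclei, at 7.29, 6.46 and 4.92 on the log2 scale. Most of its UMIs lie in 2 nuclei of 2 libraries, so these calls are no test of a surgery. Without TBI 1, Cxcl10 in astrocyte-like nuclei was at 0.00 for TBI against control, and over all nuclei, for TBI averaged over BCAS, Cxcl10 was at -0.92 and Cxcl16 at -0.02, while Cxcl12 for BCAS averaged over TBI was at 0.08. Without BCAS+TBI 2, Cxcl10 in astrocyte-like nuclei was at 0.00 for BCAS+TBI against control, and over all nuclei Cxcl10 was at -0.20 and Cxcl14 at -0.04. Without control 1, Ackr3 in endothelial-like nuclei was at 0.07 for BCAS+TBI against control. Thinned to 500 UMIs, the difference in the share of inhibitory neuron-like nuclei with Ccl27a was 0.363 percentage points with TBI surgery, against the opposite sign at 1000. Over all libraries left out in turn, the far ends of these ranges were 8.18 and 7.58 for Cxcl10 in astrocyte-like nuclei against control (TBI, BCAS+TBI), -1.73 for Ackr3, and over all nuclei 5.75 for Cxcl10, 0.87 for Cxcl16, -0.59 for Cxcl12 and 0.43 for Cxcl14. The cause of these changes was not tested. With the replicate number as a block, 0 member pairs passed in every contrast. The numbers do not pair the samples: over 18388 genes the deviations of equally numbered libraries correlated at 0.71 to 0.85 among control, BCAS and TBI but at -0.89 to -0.79 with BCAS+TBI. The library-set block without nuclei of very high UMI counts was chosen after seeing the data and gave 0. No endothelial-like class formed at resolution 0.5 or with doublets kept, so its pairs have no value there. Members with under 200 UMIs in all (Cxcl10, Cxcl16, Ccl2, Cxcr4) are limited by depth.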

Other observations

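Ccr6, the receptor of Ccl20 and a gene of the list of other receptors, was found in microglia-like nuclei of 6 of 8 libraries, was high in 3 of them, and was singled out after its values were seen. It had 16 and 14 UMIs in control 1 and 2, 1 and 1 in the BCAS libraries, 18 and 1 in TBI 1 and 2, and 0 and 0 with both surgeries. The UMIs were spread over nuclei, with at most 2 in any nucleus. Ccr6 in microglia-like nuclei passed the filter on low counts through the 3 libraries that are high. Its fitted log2 fold change for BCAS surgery averaged over TBI, -5.16 (SE 1.01), is therefore given as a description with no test. TBI 2, a library without BCAS surgery, lay at the level of the BCAS libraries. The control level was at least 11.8-fold higher than that with both surgeries, with 3 UMIs over that group as the floor.

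Ccr2, the receptor of Ccl2, had 22 UMIs in microglia-like nuclei of TBI 1, 17 in control 2, 8 in control 1 and 6 or fewer in each of the other 5 libraries, TBI 2 (1 UMI) among them. In control 1, 7 of the 8 were in 1 nucleus, in control 2, 11 of 17, and in TBI 1, 12 of 22. At the finer clustering, border macrophage-like nuclei stood apart, with 2 (BCAS+TBI 1) to 19 (TBI 1) in a library. How much of the Ccr2 lay in them was not tested. Ccr2 passed the filter on low counts through the libraries where it is high, and single nuclei hold much of its UMIs there. Its fitted log2 fold change for BCAS surgery averaged over TBI, -2.17 (SE 0.69), is therefore a description with no test.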
